A study of Mus musculus with 18 samples.

Results

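Srcap and 9 genes whose proteins work with it in placing the histone variant H2A.Z were followed in RNA from the colon of ICR mice, which are outbred. The 10 genes were Srcap, Ep400, Vps72, Ruvbl1, Ruvbl2, Actr6, Znhit1, Yeats4, Dmap1 and H2afz, out of 33977 genes in the deposited table. Of these, 9 were found by name, and H2afz was found by its gene identifier under the newer symbol H2az1. The group was chosen by the large gap of Srcap between fermented tea and capsule in set X, together with the known partners of the protein. Values of the 10 genes in that contrast are therefore a description, with no test.

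The libraries came from the colon after 44 days of gavage with Jinhua Hecha, a fermented green tea (JHHCG in the titles), of gavage with a compound Suanzoren capsule, a jujube kernel preparation (FFZR), or of saline (NC). The titles add a letter, X or C, whose meaning the labels do not state, so each treatment had 3 libraries in set X and 3 in set C, 18 in all. No sex, age or dose is given in the labels used here. By its title, the series is about sleep, with gut microbiota and glutamatergic synapses. The design text gives each treatment 3 mice, and no label ties a library to a mouse. The p-values therefore set a difference between groups against the spread of libraries within a group. This spread may be partly technical and need not be that between mice.

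Eukaryotic DNA is wrapped around histone octamers, and in part of the nucleosomes the ordinary H2A is exchanged for the variant H2A.Z, most densely beside active promoters. The exchange is made by large complexes built on a SNF2-type ATPase: the SRCAP complex on Srcap, and the TIP60-p400 complex on Ep400. Both share several subunits with each other and with the INO80 remodeller. In mouse intestine, Znhit1 is known to be needed for the upkeep of crypt stem cells.

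The Srcap row of the table could not be read on its own, because another annotated gene covers most of it on the same strand. Srcap (ENSMUSG00000053877) lies on chromosome 7 at 127511983 to 127561219, plus strand, in the GRCm38 annotation. Gm42715 (ENSMUSG00000107023) lies at 127519584 to 127567054 on the same strand. It is annotated as protein coding and runs on into Tmem265, a gene for a small membrane protein. Of the 15783 exon bases of Srcap, 9738 (61.7%) are also exon bases of Gm42715, and they make up 76.4% of the 12746 exon bases of Gm42715. Only 6045 exon bases are Srcap's alone, and 1203 of them lie before the start of Gm42715. How reads in the shared exons were given to one gene or the other is not stated in the sources used here.

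**Figure D1:**
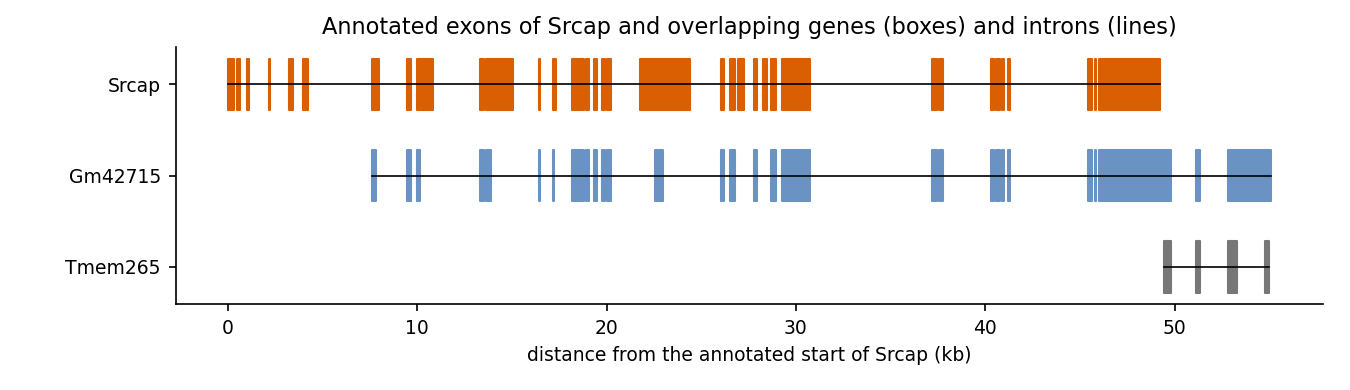
Annotated exons (boxes) and introns (lines) of Srcap, Gm42715 and Tmem265, by distance in kb from the annotated start of Srcap. The exons of Gm42715 fall on those of Srcap for 9738 bases and then run on over Tmem265.

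The shared stretch is most of the Srcap reading frame. The annotated transcript Srcap-206 has 9345 bases from start codon to stop codon, and 9288 of them (99.4%), in 1 unbroken run, are identical to the first 9288 bases of Gm42715-201. The first bases of both are printed because they mark where the 2 genes become the same. Capitals mark bases that both transcripts hold, and lower case the first 57 bases of Srcap-206, which Gm42715-201 lacks. Srcap-206 spans chr7:127516148-127519646 in the part shown, with introns removed, and Gm42715-201 spans chr7:127519584-127519646, both GRCm38, plus strand.

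Srcap-206 start: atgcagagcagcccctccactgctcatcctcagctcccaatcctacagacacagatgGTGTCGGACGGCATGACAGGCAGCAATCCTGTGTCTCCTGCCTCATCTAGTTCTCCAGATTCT
Gm42715-201 start: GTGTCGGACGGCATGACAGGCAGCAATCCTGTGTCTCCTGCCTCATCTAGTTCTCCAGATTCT

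The other end of the run is the stop codon, at 127560767 to 127560769, which both genes share. The last 60 bases of Srcap-206, at chr7:127560710-127560769 on the plus strand, are bases 9229 to 9288 of Gm42715-201. Gm42715-201 then goes on for a further 3458 bases.

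Srcap-206 end: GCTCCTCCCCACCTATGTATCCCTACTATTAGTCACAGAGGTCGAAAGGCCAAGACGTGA

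The Srcap row names 13 of the 14 annotated Srcap transcripts, and Srcap-206 is the one it does not name. Among the 13 it names, the longest run identical to Gm42715-201 was 6341 bases, in Srcap-207. A read from these exons can therefore match a Srcap transcript and Gm42715 equally well.

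Srcap itself was high in the tea libraries of set X and low in the capsule libraries of set X. Levels are given as TMM-scaled counts per 1000000 counts of the library (CPM). Srcap stood at 48.7, 59.1 and 50.5 CPM in the tea libraries, at 3.55, 4.94 and 2.19 CPM in the capsule libraries and at 6.79, 12.6 and 16 CPM in the saline libraries of set X. The 3 groups did not overlap. The tea mean was 52.8 ± 5.56 CPM and the capsule mean 3.56 ± 1.38 CPM (SD, n = 3 each), a log2 difference of 3.89 ± 0.40 (SE), or 14.8-fold. This is the contrast that chose the gene, so no test is given. In that contrast edgeR called 0% of 20889 genes at an adjusted p of 0.05.

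The order of the groups was different in set C. Srcap stood at 1.65, 24.2 and 6.73 CPM in the tea libraries, at 48.6, 17.8 and 5.15 CPM in the capsule libraries and at 16, 11.6 and 20.8 CPM in the saline libraries. All 3 groups overlapped, and the tea and capsule groups were each far wider than the saline group. Tea minus capsule was -1.14 ± 0.96 on the log2 scale, with a 95% interval of -3.33 to 1.06 (adjusted p = 1, edgeR quasi-likelihood test). The sign was opposite to that of the value in set X. That value was chosen for its size, so the difference between the sets was not tested. The library FFZRC_5, with 48.6 CPM, was close to the tea libraries of set X, although it was a capsule library. Without libraries in turn, the set C value ran between -2.46 and -0.03.

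Gm42715 took most of the reads of the locus in every library. It had 5815 to 10409 counts per library, against 125 to 4159 counts for Srcap. Of the counts given to either gene, Srcap held 34.9%, 35% and 23.7% in the tea libraries of set X, 2.4%, 3.08% and 1.28% in the capsule libraries and 5.02%, 8.11% and 13.2% in the saline libraries. In set C the share was 1.38%, 18.5% and 3.74% in tea, 34.2%, 15.7% and 3.95% in capsule and 13%, 11.3% and 16.1% in saline. Gm42715 varied only 1.91-fold between libraries in CPM, so the share follows the Srcap level by arithmetic and is no separate result.

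**Figure D2:**
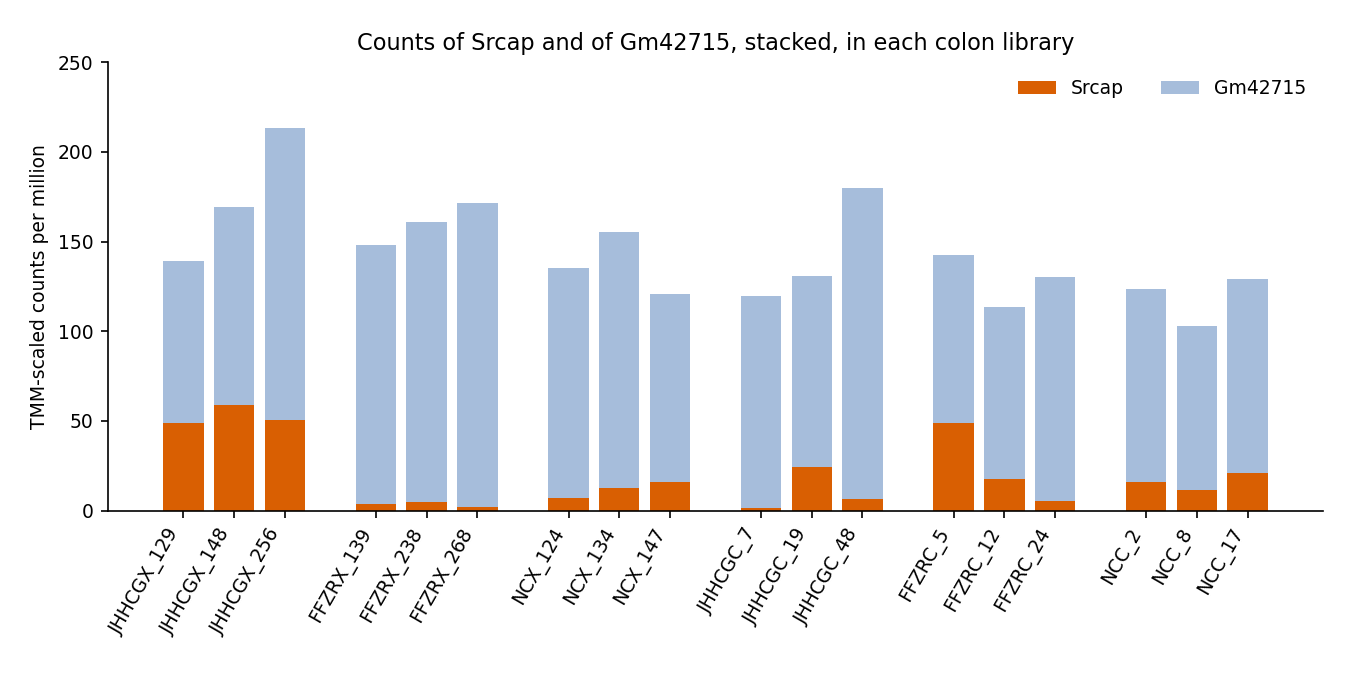
TMM-scaled CPM of Srcap (orange) and Gm42715 (blue), stacked, in each of the 18 colon libraries, set X on the left and set C on the right. The orange part varies 35.8-fold between libraries, and the height of the whole bar 2.08-fold.

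The summed level of Srcap and Gm42715 overlapped between tea and capsule of set X. Most of the sum is Gm42715, so a gap of Srcap alone can show in it only in part. The sum therefore cannot tell whether Srcap itself differed between the groups. The sum was 139.4, 169.1 and 213.2 CPM in the tea libraries of set X, 147.8, 160.6 and 171.4 CPM in the capsule libraries and 135.4, 155.1 and 121.0 CPM in the saline libraries. The capsule values all lay inside the range of the tea values. The means were 173.9 ± 37.1 CPM in tea and 159.9 ± 11.8 CPM in capsule, a log2 difference of 0.12 ± 0.19 with an interval of -0.31 to 0.55, again without a test. Without JHHCGX_256, the tea library at 213.2 CPM, this difference was -0.05, and over all libraries left out in turn it ran between -0.05 and 0.31.

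The level of Gm42715 alone overlapped between the tea and capsule groups of set X. It stood at 90.7, 110.0 and 162.7 CPM in tea, at 144.3, 155.7 and 169.2 CPM in capsule and at 128.6, 142.6 and 105.0 CPM in saline. Tea minus capsule was -0.37 ± 0.23 on the log2 scale (interval -0.89 to 0.15). Over all 18 libraries the log2 levels of Gm42715 and Srcap had a Spearman rho of -0.5, a description of 2 counts that share exons.

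In set C, which the choice of the genes did not use, the sum was 119.4, 131.0 and 179.6 CPM in tea, 142.3, 113.3 and 130.2 CPM in capsule and 123.3, 102.7 and 129.3 CPM in saline. Tea minus capsule of the sum was 0.16 ± 0.20 (interval -0.31 to 0.62, adjusted p = 1, edgeR). Against saline of set C, the sum was 0.30 ± 0.20 in tea and 0.14 ± 0.20 in capsule (adjusted p = 1 in both, edgeR). Adding the 2 counts was decided after the data had been seen.

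The comparisons with saline in set X use the tea and capsule libraries of the contrast that chose Srcap, so its values there are a description, with no test. Srcap alone was 2.16 ± 0.37 higher in tea than in saline on the log2 scale, and capsule minus saline was -1.73 ± 0.37. With Gm42715 added, tea minus saline was 0.34 ± 0.19 and capsule minus saline 0.22 ± 0.19, so the first was smaller and the second had the opposite sign.

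In set C, Srcap was -0.54 ± 0.96 in tea minus saline (interval -2.71 to 1.64) and 0.60 ± 0.96 in capsule minus saline (interval -1.57 to 2.77), with an adjusted p of 1 in both by edgeR. Averaged over treatments, set X minus set C was -0.31 ± 0.44. The difference of the tea-saline effect between the sets was 2.73 for Srcap, and that of the capsule-saline effect was -2.29. These 3 values hold the set X levels that chose the gene and are given without a test.

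**Figure D3:**
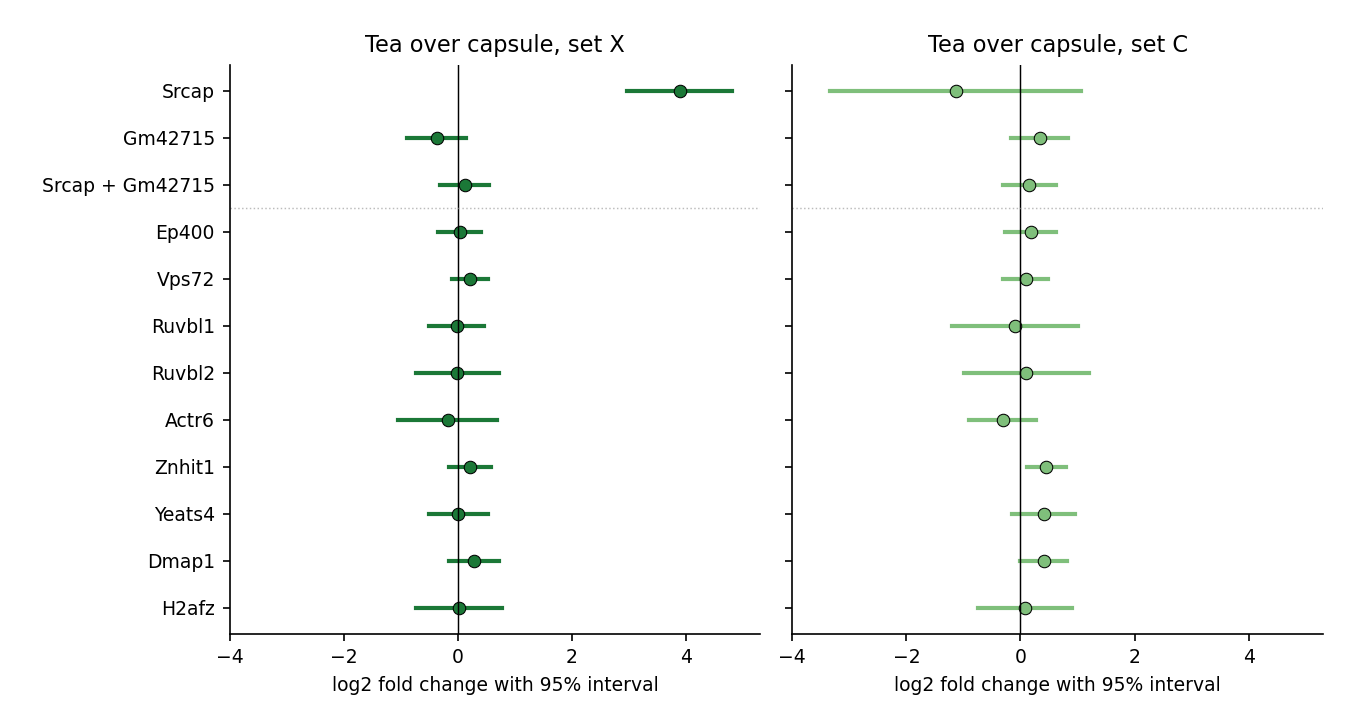
Log2 fold change of tea over capsule with its 95% interval, in set X (left) and set C (right), for Srcap, Gm42715, their sum and the 9 partners. Srcap alone stands far from 0 in set X, at 3.89, while the sum is at 0.12 and the partners lie between -0.18 and 0.28.

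The 9 partners did not share the gap. In tea minus capsule of set X their log2 differences ran from -0.18 to 0.28 with a median of 0.02, with 6 above 0 and 3 below, beside a median of 0 over all genes. In set C they ran from -0.31 to 0.45 with a median of 0.10, beside -0.02 over all genes, and 7 were above 0. There 0 of 10 genes passed the test, where edgeR called 0.0143% of 20964 genes, and 2 had an unadjusted p under 0.05, as did 5.22% of all genes. DESeq2, which called 0.75% of all genes, and limma on log2(FPKM + 1), which called 0.0142%, also called 0 of the 9 partners.

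The partners also varied less between libraries than Srcap. From the lowest to the highest of the 18 libraries, Srcap varied 35.8-fold, and the partners between 1.59-fold (Vps72) and 3.62-fold (Ruvbl1). The SD of log2 CPM was 1.56 for Srcap, larger than that of 90.6% of genes, against 0.18 for Ep400 and 0.20 for Vps72, larger than that of 2.45% and 4.23% of genes. The value for Srcap includes the gap by which it was chosen. Within groups the SD was 1.1 for Srcap, larger than that of 74.3% of genes, and at most 0.58 among the partners, for Ruvbl2. Over all libraries the sum of Srcap and Gm42715 had an SD of 0.26, among the partners' values, and most of that sum is Gm42715.

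Per length, as the deposited FPKM, H2afz was the most abundant member and Srcap the least. The medians over 18 libraries were 73 FPKM for H2afz, 25.8 for Yeats4, 18 for Znhit1, 13.1 for Vps72, 8.06 for Ruvbl2, 6.8 for Dmap1, 6.59 for Ruvbl1, 3.94 for Ep400, 2.12 for Actr6 and 0.85 FPKM for Srcap. Over the 18 libraries, the ranges of neighbours in this order overlapped for every pair. Within each single library, however, H2afz stood above Yeats4. The FPKM of Srcap rests on a length of 17120 bases and leaves out the reads that went to Gm42715.

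Ep400, the ATPase of the other H2A.Z exchanger, was the closest relative of Srcap by role and among the least variable. It had 53.3, 58.3 and 57 CPM in tea, 55.6, 56.9 and 52.4 CPM in capsule and 59.1, 68.7 and 46.5 CPM in saline of set X. The tea and capsule libraries overlapped, at a log2 difference of 0.03 ± 0.16 (interval -0.34 to 0.40). In set C the same difference was 0.18 ± 0.20 (adjusted p = 1, edgeR).

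Vps72, the subunit that binds the H2A.Z-H2B dimer, stood at 58.2, 58.7 and 64.8 CPM in tea, 58, 47.7 and 51.4 CPM in capsule and 46.6, 43.3 and 49.1 CPM in saline of set X. All tea libraries lay above all saline libraries, at 0.39 ± 0.14 (adjusted p = 0.211, edgeR), short of the threshold. The share of all genes that separate like this was not counted. In this comparison 17.1% of all genes had an unadjusted p under 0.05 by edgeR. In set C tea minus saline was 0.32 ± 0.17 (adjusted p = 1, edgeR), and the groups overlapped.

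Of the 9 partners, 5 had their highest group mean under tea in both sets, namely Vps72, Znhit1, Yeats4, Dmap1 and H2afz, and none of them passed the test. In set X the tea mean hardly exceeded the capsule mean for Yeats4 (38.9 against 38.7 CPM) and H2afz (133.5 against 131.3 CPM). By FPKM tea was the lower there, at 24.7 against 26.7 for Yeats4 and 68.4 against 72.4 for H2afz. Znhit1 and Dmap1 were the 2 whose tea libraries lay above every capsule and saline library of set C. The share of all genes with either pattern was not counted, so these counts say nothing particular about the partners. Znhit1, which works with Actr6 in a module of the SRCAP complex, had 38.5, 45.4 and 45.5 CPM in tea, 31.6, 29.8 and 33.2 CPM in capsule and 30.8, 34 and 33.3 CPM in saline of set C. Tea lay above both other groups, with log2 differences of 0.45 ± 0.15 against capsule (adjusted p = 0.871, edgeR) and 0.42 ± 0.15 against saline (adjusted p = 1, edgeR). In set X it had 35.3, 37.1 and 45.6 CPM in tea, 32.9, 31.8 and 37.2 CPM in capsule and 31.1, 28.2 and 25.2 CPM in saline. Tea lay above every saline library, at 0.48 ± 0.16 (adjusted p = 0.191, edgeR), and overlapped capsule. How many of all genes did so in set X was not counted either.

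Dmap1, a subunit of both exchange complexes that was first found as a partner of a DNA methyltransferase, had 21.4, 21.3 and 19 CPM in tea, 15.7, 16.1 and 14.6 CPM in capsule and 16, 16.4 and 12.8 CPM in saline of set C. Here too tea did not overlap the others, at 0.41 ± 0.18 against capsule (adjusted p = 0.944, edgeR) and 0.47 ± 0.18 against saline (adjusted p = 1, edgeR). In set X it had 23.2, 23.9 and 28.6 CPM in tea, 22, 18.8 and 21.4 CPM in capsule and 20.5, 19.5 and 14.3 CPM in saline. Tea lay above all of them, at 0.48 ± 0.19 against saline (adjusted p = 0.247, edgeR). Again, the share of all genes that separate like this was not counted in either set.

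Without the 6 libraries whose mitochondrial transcripts took over 12% of counts, tea minus saline of set X was 0.22 for Znhit1 and 0.20 for Dmap1, and saline was then 1 library. In set C the same step left 0.40 for Znhit1 and 0.42 for Dmap1. Exons of Znhit1 share 529 bases, 28.4% of its length, with Plod3 on the opposite strand, and no source used here says whether strand was used in counting. The count of Znhit1 is therefore uncertain.

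Dmap1 was the member with the smallest p between the sets. Over the 3 treatments, set X minus set C was 0.33 ± 0.10 (adjusted p = 0.559, edgeR), higher in set X for each treatment by the group means. In that comparison 0 of 9 partners passed, where edgeR called 0.0402% of 22380 genes. The unadjusted p of 1 partner, Dmap1, was under 0.05, as was that of 7.15% of all genes. DESeq2 called 0.674% of all genes and limma on log2(FPKM + 1) 0.0433%, and both called 0 of the 9 partners.

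**Figure D4:**
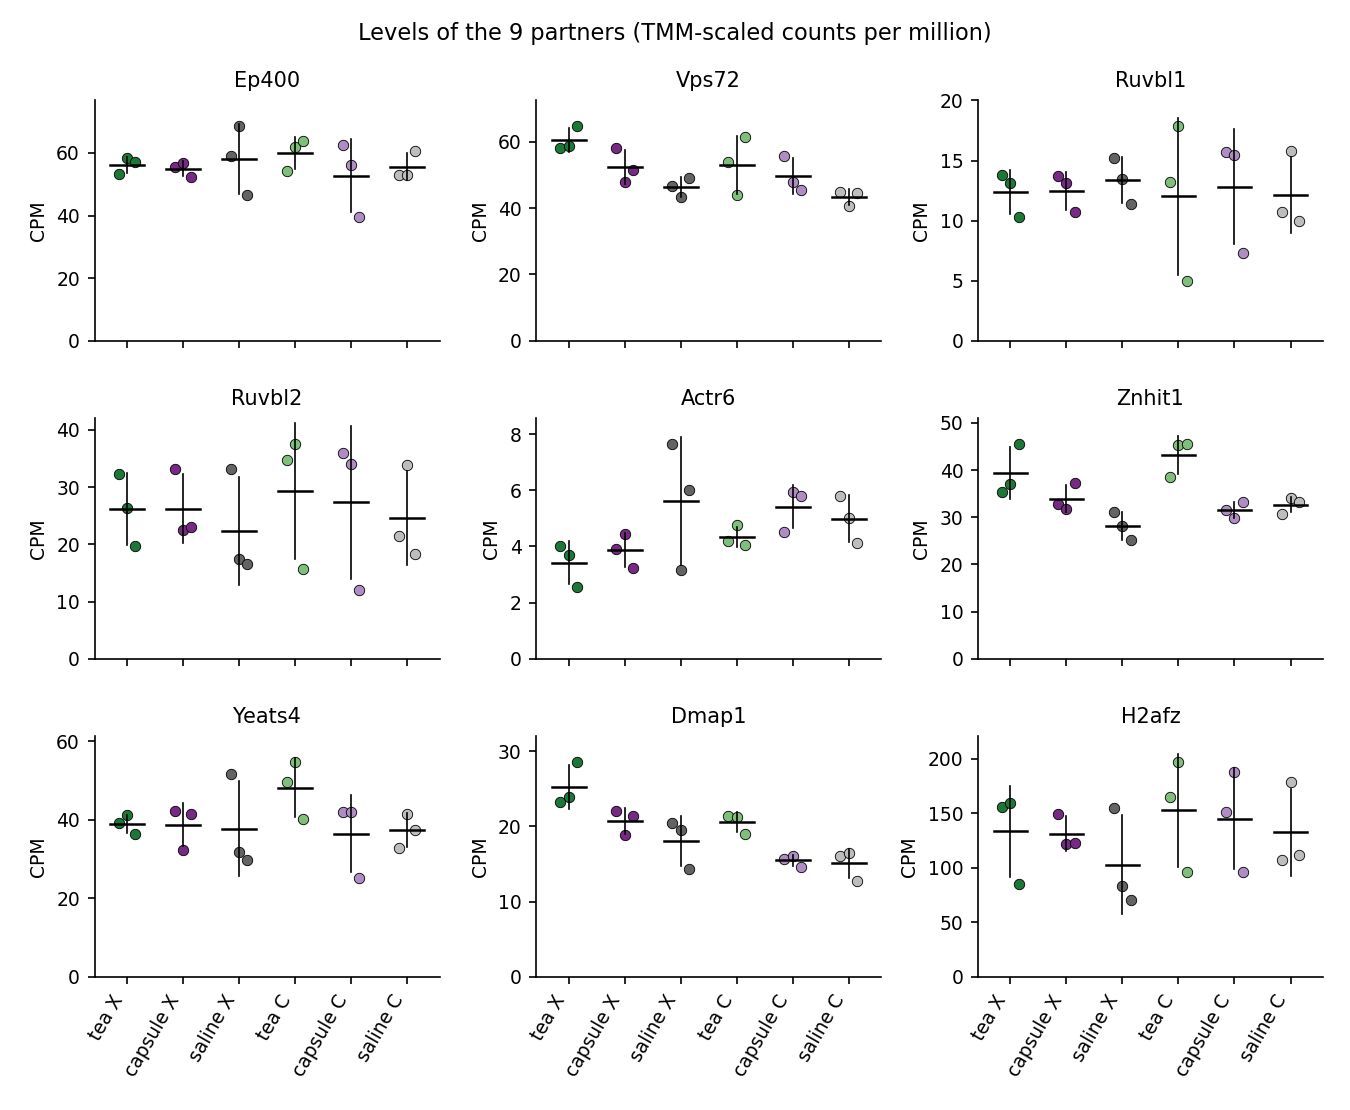
TMM-scaled CPM of the 9 partners, by group. Points are libraries, horizontal bars means and vertical bars SD (n = 3); all axes start at 0. Tea of set C stands above capsule and saline of set C for Znhit1 and Dmap1, and groups overlap widely for Ruvbl1, Ruvbl2 and H2afz.

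In both comparisons with saline in set C, 0 of 10 genes passed. For tea, edgeR called 0% of all genes, and 2 members had an unadjusted p under 0.05, as did 3.19% of all genes. For capsule, edgeR called 0.11% of all genes, and 0 members had an unadjusted p under 0.05, against 5.75% of all genes. In set X, 0 of 9 partners passed in either comparison, where edgeR called 0% of all genes for tea and 0% for capsule. There 3 partners had an unadjusted p under 0.05 for tea, beside 17.1% of all genes, and 0 for capsule, beside 9.64%.

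DESeq2 and limma on log2(FPKM + 1) called 0 of the 9 partners in these 4 comparisons. Of all genes, DESeq2 called 0.674% for tea and 1.88% for capsule in set C, and 8.47% for tea and 0.726% for capsule in set X. The shares of limma were 0.525% for tea and 0.903% for capsule in set C, and 0.00473% for each of them in set X.

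Ruvbl1 and Ruvbl2, the paired AAA+ ATPases that form the ring of all 3 complexes, tended to stand lower in the libraries with a high mitochondrial share. For Ruvbl1 the levels overlapped, and FFZRC_24 was the only capsule library with such a share. Ruvbl2 had 19.7 CPM or less in the 6 libraries over 12% mitochondrial counts, from 12 CPM up, and 21.5 to 37.6 CPM in the other 12, with no overlap. Muc2, a goblet cell marker, split the same way, with at most 346.3 CPM in those 6 and at least 386.1 CPM in the other 12. The share of all genes that split this way was not counted. Ruvbl1 had 4.94 to 13.5 CPM in those 6 and 10.7 to 17.9 CPM in the other 12. In tea minus capsule, Ruvbl2 was -0.01 ± 0.32 in set X and 0.11 ± 0.48 in set C (adjusted p = 1, edgeR). Exons of Ruvbl2 share 310 bases with Gys1 on the opposite strand.

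H2afz, which encodes the main form of H2A.Z itself, was also lower in most of these 6 libraries, with some overlap. It had 155.7, 159.4 and 85.4 CPM in tea, 149.7, 121.8 and 122.5 CPM in capsule and 155.2, 83.4 and 70.1 CPM in saline of set X. The low values were JHHCGX_256, NCX_134 and NCX_147, all over 12% mitochondrial counts. In set C it had 164.8, 197.2 and 95.7 CPM in tea, 151.1, 188.2 and 95.8 CPM in capsule and 106.9, 178.4 and 111.7 CPM in saline. Its range was 70.1 to 111.7 CPM in the 6 libraries and 106.9 to 197.2 CPM in the 12 with less. Tea minus capsule was 0.02 ± 0.34 in set X and 0.08 ± 0.36 in set C (adjusted p = 1, edgeR).

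The same 6 libraries differed in markers of cell types. The summed level of 3 of 3 proliferation markers (Mki67, Top2a, Pcna) was 52.2 to 117 CPM in these 6, against 87.5 to 251 CPM in the 12 with less, and that of 3 of 3 goblet cell markers (Muc2, Tff3, Clca1) was 91.1 to 688 CPM, against 948 to 8510 CPM. The sum of 3 of 3 smooth muscle markers (Myh11, Acta2, Des) was 5040 to 17700 CPM in these 6, against 1340 to 5930 CPM in the 12 with less, and none of these 9 markers was at 0 in any library. In whole tissue, fewer cells of a type and less RNA per cell cannot be told apart, and the part of cell types in the levels of Ruvbl2 and H2afz was not tested. Srcap had 5.15 to 50.5 CPM in the 6 libraries and 1.65 to 59.1 CPM in the other 12, so it did not split this way.

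**Figure D5:**
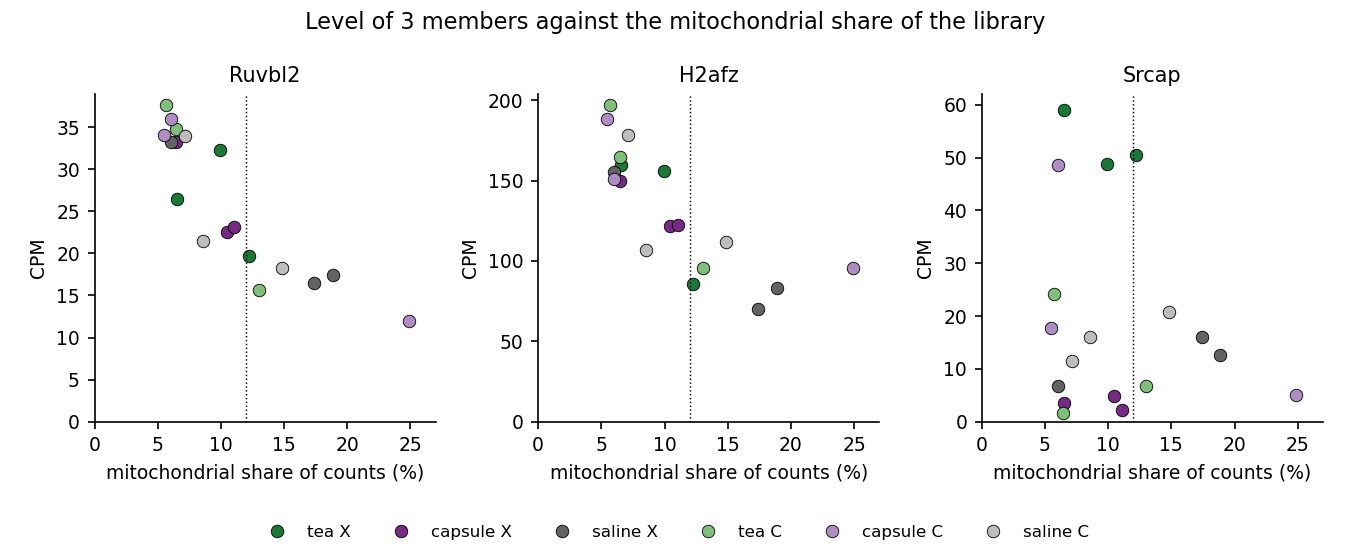
Level of Ruvbl2, H2afz and Srcap in TMM-scaled CPM against the share of counts from mitochondrial transcripts, 18 libraries coloured by group. Libraries right of the dotted line at 12% all have 19.7 CPM of Ruvbl2 or less, while Srcap is high or low on both sides.

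Actr6, an actin-related protein of the SRCAP complex, was the least abundant of the partners in CPM. In set X it had 4.01, 3.71 and 2.55 CPM in tea, 3.92, 4.44 and 3.24 CPM in capsule and 7.66, 3.17 and 6.02 CPM in saline. The groups overlapped, and tea minus saline was -0.71 ± 0.38 (adjusted p = 0.374, edgeR). Yeats4, whose YEATS domain binds acylated histone lysines, had 40.1 to 54.8 CPM in tea, 25.1 to 42.1 CPM in capsule and 32.9 to 41.6 CPM in saline of set C. Its tea minus capsule was 0.41 ± 0.25 in set C (adjusted p = 0.993, edgeR) and 0.01 ± 0.23 in set X.

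From library to library within set C, no partner passed the test for a correlation with Srcap, and 0 of all 20963 genes did by Pearson's r. The smallest exact p that 9 libraries allow is 2.8e-06. After adjustment over 20963 genes, a single gene could therefore not pass even with a perfect correlation, and the lack of calls decides little. Over these 9 libraries Pearson's r of log2 CPM with Srcap ran from -0.38 (Dmap1) to 0.46 (Ep400) and Spearman's rho from -0.28 (Znhit1) to 0.6 (Ep400), and the smallest exact permutation p was 0.218 for r and 0.0968 for rho (two-sided, both Ep400). Adjusted over 20963 genes, the Ep400 values were 0.954 and 0.882. Without JHHCGC_7 and FFZRC_5, the libraries farthest from the median of Srcap, r ran from -0.44 (Vps72) to 0.75 (Ruvbl1), and 0 partners passed. The 7 libraries left have 5040 permutations, too few for a single gene to pass. In set X, where Srcap differs by group through the choice of the genes, rho was between -0.33 (Yeats4) and 0.52 (Vps72), as a description.

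Over all 18 libraries, rho with Srcap was highest among the partners for Ep400, at 0.33, beside a median of -0.01 over all genes. Genes known only by a clone name reached up to 0.75 and are not named here. With those left out, the genes most like Srcap in this measure were Itprip, with a rho of 0.68, Cops4 with 0.68, Bap1 with 0.65, Dusp4 with 0.64 and Tg with 0.64. Cops4 is a subunit of the COP9 signalosome, Bap1 a deubiquitinase of histone H2A, Dusp4 a phosphatase of MAP kinases and Tg thyroglobulin, at a mean log2 CPM of only -3.33. These come from a ranking of all genes on the pattern that chose Srcap, with libraries and depth in common, and carry no p.

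The wider families of chromatin genes gave 0 calls by edgeR, with all libraries, in any of the 6 tested comparisons. The lists held 11 other TIP60-p400 subunits, 12 INO80 genes, 7 H2A variants and chaperones and 23 other SNF2-type ATPases, and all of them were tested. Without the libraries over 12% mitochondrial counts, edgeR called 1 of them, the SNF2-type ATPase Chd9 in capsule minus saline of set C, at 2.06 on the log2 scale (adjusted p = 0.0432), against 1.14 ± 0.66 with all libraries (adjusted p = 1). Between the sets, DESeq2 called 1, Smarca5, at -0.36 (adjusted p = 0.0372), where edgeR gave an adjusted p of 0.536.

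In tea minus capsule of set C, 17 of 23 SNF2-type ATPases were below 0, with a median of -0.18 beside -0.02 over all genes. The smallest p there were those of Smarca2, an ATPase of the BAF complex, at -0.37 ± 0.14 (adjusted p = 0.922, edgeR), and of Atrx, a heterochromatin remodeller, at -0.48 ± 0.19 (adjusted p = 0.94, edgeR). In tea minus capsule of set X, 19 of 23 were below 0 with a median of -0.24. Over all genes the median there was 0, and 49.5% were above 0. These values describe the contrast that chose Srcap and were not tested.

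In tea minus saline of set X, 18 of 23 SNF2-type ATPases were below 0 with a median of -0.54, beside -0.06 over all genes, and 9 of 23 had an unadjusted p under 0.05, beside 17.1% of all genes. DESeq2 called 7 of 23, where it called 8.47% of all genes, and limma on log2(FPKM + 1) called 0. Smarca5, the ATPase of the ISWI remodellers, was at -1.06 ± 0.19 (adjusted p = 0.0664, edgeR) and Shprh, a ubiquitin ligase with a SNF2 domain, at -1.04 ± 0.22 (adjusted p = 0.0824, edgeR). Without the libraries over 12% mitochondrial counts, which left 1 saline library, 15 of 23 were below 0 with a median of -0.24.

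In the same comparison 8 of 11 TIP60-p400 subunits were below 0 with a median of -0.20, and DESeq2 called 2 of 11, again beside 8.47% of all genes. Epc2, a scaffold subunit, was at -1.01 ± 0.19 (adjusted p = 0.0675, edgeR) and Ing3, which reads methylated histone H3, at -0.84 ± 0.24 (adjusted p = 0.136, edgeR). Of the INO80 genes 7 of 12 were below 0 with a median of -0.04, and DESeq2 called 3 of 12, beside the same 8.47%. Of these 3, Mcrs1 was higher in tea, at 0.475 (adjusted p = 0.0265, DESeq2), and the others were lower. Uchl5, a deubiquitinase of this complex and the proteasome, was at -0.83 ± 0.20 (adjusted p = 0.102, edgeR) and Ino80d, a further subunit, at -0.69 ± 0.20 (adjusted p = 0.139, edgeR).

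The H2A variants and chaperones were evenly spread there, with 4 of 7 below 0, a median of -0.02 and 0 calls by DESeq2. Anp32e, a chaperone that removes H2A.Z from nucleosomes, was at -0.54 ± 0.18 (adjusted p = 0.189, edgeR), and Nap1l1, a general H2A-H2B chaperone, at -0.51 ± 0.17 (adjusted p = 0.176, edgeR). In tea minus saline of set C, no gene of the 4 lists had an unadjusted p under 0.05, and DESeq2 and limma called 0.

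The libraries held between 59206980 and 76830278 counts each, of which 5.48 to 24.88% came from mitochondrial transcripts. The 5 epithelial markers (Epcam, Krt8, Krt20, Cdx2, Vil1) were present in every library, at a summed 5500 to 13800 CPM, as the labelled tissue implies. Transcripts of other tissues were found in some libraries. Lung markers (Sftpc, Scgb1a1) summed to 0 to 117 CPM in tea, 117 to 223 CPM in capsule and 0 to 266 CPM in saline of set X. Col2a1, of cartilage, was at 0 in all tea libraries of set X, at up to 68.3 CPM in capsule and up to 74 CPM in saline. In set C the lung sum was 76.1 to 231 CPM in tea, 0 in all capsule libraries and 164 to 182 CPM in saline. Col2a1 was at 0 in tea, at up to 0.285 CPM in capsule and at 70.8 to 89.9 CPM in saline of set C. The part of such tissue in the levels of Srcap and its partners was not tested.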

How the data were processed

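Per the labels' protocols, 5 µg of total RNA went into each library, with oligo(dT) beads used to prepare it. Per the submitters' processing notes, the tools were StringTie 1.3.4d, HISAT2 2.0.4, edgeR with no version and cutadapt 1.9, whose roles are not stated there. Per the file headers, the authors deposited raw counts and FPKM per gene and library. The labels list a human build (hg38), but 33866 of 33977 gene identifiers are in mouse GENCODE vM21 (GRCm38), and all 10 members have the same position there. Overlaps and sequences were read from that annotation and its transcripts.

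Counts were tested with edgeR 4.0.16 (R 4.3.3): TMM scaling, filterByExpr with a minimum count of 10, the quasi-likelihood test and Benjamini-Hochberg adjustment over all genes at 0.05. Each set was fitted alone (9 libraries), and all 18 together for set X minus set C and for differences between sets. The SE was taken as the size of the log2 fold change divided by the root of its F, and intervals are 95%. CPM levels come from the 18-library fit. Correlations used log2 CPM (prior count 2) and all 362880 permutations of 9 libraries, with NumPy 2.4.6. Alternatives were DESeq2 1.42.0, limma 3.58.1 on log2(FPKM + 1) or log2(FPKM + 0.1), RLE scaling, no filter, a joint fit, and libraries left out. Both steps were tested on simulated data.

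The members and lists were chosen with earlier results of these data known. Named genes were the members, the 2 list members with the smallest p in a comparison described, and the 5 genes nearest to Srcap by rho after genes with clone names (Gm, Rik and the like) were left out. Chd9, Mcrs1, FFZRC_5, JHHCGX_256 and Gm42715 were singled out after their values were seen. Same-group libraries differed by a chi-square of 62.8 to 1319.1 per gene, so none was a copy of another.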

Additional observations from a re-analysis of the deposited data

How the results depend on the processing

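No paired analysis was possible because the numbers in the titles are not shared by any of the groups. The 9 partners stayed short of the threshold in every comparison tested under every alternative. No partner passed the correlation test with Srcap under any, but with 9 libraries or fewer no single gene could pass that test alone. With the sum of Srcap and Gm42715, mostly Gm42715, in place of Srcap, r in set C ran from -0.68 (Ruvbl1) to 0.72 (Vps72). The exact permutation p were 0.0461 and 0.021, adjusted 0.454 and 0.453. With Srcap alone, r was 0.4 for Ruvbl1 and -0.22 for Vps72. Using the sum was decided after the data had been seen. The Srcap gap between tea and capsule of set X was 1.71 with limma on log2(FPKM + 1), with or without the filter, and 3.32 on log2(FPKM + 0.1).

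With Gm42715 counted in, added after the data had been seen, Srcap changed sign to 0.155 in tea minus capsule and 0.299 in tea minus saline of set C, 0.222 in capsule minus saline of set X and 0.268 in set X minus set C, and the gap of set X fell to 0.12. By construction this alternative puts the reads of both genes in 1 count, most of it from Gm42715, so a gap of Srcap alone is diluted in it.

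The share of all tested genes that were called moved far with the tool. The main shares, in tea minus capsule, tea minus saline and capsule minus saline, were 0.0143%, 0% and 0.11% in set C, 0%, 0% and 0% in set X, and 0.0402% between the sets. DESeq2 called 0.75%, 0.674% and 1.88% in set C, 0.91%, 8.47% and 0.726% in set X, and 0.674% between the sets. In set C, limma on log2(FPKM + 1) called 0.525% for tea and 0.903% for capsule against saline, 0.464% and 0.706% without the filter, and 0.35% and 0.842% with a pseudocount of 0.1, which called 0.0284% in tea minus capsule. In set X these 3 fits called 0.00473%, 0.00316% and 0.00473% in tea minus saline and 0.00473%, 0.00948% and 0.00946% in capsule minus saline, and 0.00632% in tea minus capsule with no filter. The joint fit called 0% in tea minus capsule and 0.0268% in capsule minus saline of set C, and 2% in tea minus saline of set X. Without libraries over 12% mitochondrial counts, 0.0515% were called in tea minus capsule and 1.01% in capsule minus saline of set C. With libraries left out in turn, the shares were 0.00458 to 0.0412%, 0 to 0.0504% and 0.00917 to 1.1% in set C, the highest each time without FFZRC_24. In set X they were 0 to 0.0046% in tea minus capsule and 0 to 2.48% in tea minus saline, both highest without NCX_124. The cause was not tested. A pseudocount of 0.1 moved the median of all genes from 0.049 to -0.089 in capsule minus saline of set C. In set X it moved from -0.005 to -0.114 in tea minus capsule and from -0.06 to -0.113 in tea minus saline. Every other median was within 0.1 of 0.

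Signs of small member differences, none past the threshold, turned in some alternatives. Without libraries over 12% mitochondrial counts, tea minus capsule of set C was -0.031 for Vps72 and 0.041 for Ruvbl1; capsule minus saline of set C 0.141 for Ep400, -0.068 for Actr6, 0.153 for Yeats4 and -0.052 for Dmap1. In set X, tea minus saline was -0.172 for Ruvbl2 and -0.356 for Yeats4; capsule minus saline -0.337 for Ruvbl2, -0.413 for Yeats4 and -0.241 for H2afz. Between the sets Ruvbl1 was -0.107. In tea minus capsule of set X, Ruvbl1 was 0.105, Ruvbl2 0.165 and Actr6 0.004. With limma on FPKM, with a pseudocount of 1 and of 0.1, tea minus saline was -0.157 and -0.219 for Ruvbl1 in set C and -0.013 and -0.011 for Yeats4 in set X. Capsule minus saline of set C was -0.037 and -0.071 for Ruvbl1, -0.009 and -0.048 for Ruvbl2, and -0.046 and -0.057 for Dmap1. The median of all genes was -0.039 and -0.089 in these 2 fits, so such turns are not particular to the members. Srcap between the sets was 0.09 and 0.096. The joint fit gave -0.02 for Ruvbl1 in tea minus saline of set C.

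Libraries left out in turn gave these ranges where a sign turned. In tea minus capsule of set X they were -0.253 to 0.005 for Actr6, -0.069 to 0.105 for Ruvbl1 and -0.14 to 0.192 for Ruvbl2. There H2afz ran from -0.094 to 0.268 and Yeats4 from -0.106 to 0.113. In capsule minus saline of set C they were -0.009 to 0.257 for Actr6, -0.083 to 0.097 for Dmap1, -0.223 to 0.068 for Ep400, -0.106 to 0.399 for H2afz, -0.109 to 0.329 for Ruvbl1, -0.112 to 0.479 for Ruvbl2, -0.507 to 1.02 for Srcap (lowest without FFZRC_5) and -0.167 to 0.144 for Yeats4. In capsule minus saline of set X they were -0.217 to 0.051 for Ep400, -0.196 to 0.025 for Ruvbl1 and -0.105 to 0.348 for Yeats4. In tea minus saline of set X they were -0.186 to 0.12 for Ep400, -0.213 to 0.008 for Ruvbl1 and -0.097 to 0.356 for Yeats4. In set C, Ruvbl1 ran from -0.397 to 0.38 in tea minus saline and from -0.454 to 0.322 in tea minus capsule, where H2afz ran from -0.107 to 0.368 and Ruvbl2 from -0.194 to 0.456. Between the sets they were -0.053 to 0.057 for Ep400, -0.079 to 0.182 for Ruvbl1 and -0.476 to 0.154 for Srcap. In the tested comparisons, 77 member differences turned sign. With tea minus capsule of set X included, 1193 were counted as unchanged. In the tested comparisons this meant the same sign and side of the threshold. In tea minus capsule of set X it meant a value within the SE of the main value, whatever its sign.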
